A study of Homo sapiens with 4 samples.

Results

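CD209 and 6 further C-type lectin genes of myeloid cells were examined: CLEC5A, CLEC7A, CLEC12A, CLEC4A, CLEC2B and CD302. They were chosen by gene symbol among the 27106 rows of a table of normalised read counts. The table holds 6 of the 7, and CLEC4A is not analysed here. All 6 passed the minimum mean of 10 normalised reads that 19398 genes met. The choice was made with values of the comparison between the oligonucleotides known. Differences between the groups in these 6 genes are therefore given as a description, with a standard error (SE) and no test. Each SE is the moderated one of the limma fit, drawn toward the spread of genes of similar level. It can be smaller than the spread of the gene itself would give.

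The cells were THP-1, an established human line from an acute monocytic leukaemia. All 4 libraries came from cells that had received an antisense oligonucleotide (ASO), a synthetic strand designed to bind one RNA and reduce it, and all are labelled day 5. In 2 libraries the oligonucleotide was non-targeting (the control), and in 2 its target was SGOL1-AS1, a long noncoding RNA. Both groups are 1 cell line, and no label states that the libraries were separate cultures, so any p-value measures only the spread between these samples, and that spread may be technical. The columns of the second group are named by an unexplained code. They were assigned to the knockdown by elimination and are numbered here in column order.

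The libraries held 41435922 to 51851314 gene reads. No library repeated another: chi-square divided by its degrees of freedom was 4.47 within the non-targeting pair and 4.95 within the knockdown pair. The targeted RNA itself (SGO1-AS1) was low, with reads of 24 and 21 (non-targeting) against 12 and 17 (knockdown). Its log2 fold change was -0.48 ± 0.37 (SE; limma, adjusted p = 0.555), so at this depth no loss could be detected, and the target cannot serve as a check of the labels. The 10 listed monocytic markers summed to 75910 and 73450 normalised reads with the control oligonucleotide, against 73560 and 72350 with the knockdown, led by LYZ at 36975 to 40116. Of these 3 fell (limma): CD4 by 0.35, FCGR1A by 0.37 and CST3 by 0.21 on the log2 scale (adjusted p = 0.000193, 0.00118 and 0.0407). None rose. At an unadjusted p under 0.05, 4 were lower and 1 higher, and edgeR and DESeq2 each called 2 lower and 0 higher. CD14 stood at 94.7 to 110 and CD68 at no more than 21.6. Of 11 dendritic cell markers 7 were in the table, summing to 3385 to 3467 in the non-targeting and 3552 to 3675 in the knockdown libraries, with CD1C at 6.72 to 11.4. The lymphocyte and natural killer markers in the table (6 of 10) summed to 1620 to 1932, led by NKG7, and KLRD1 had 0 reads in knockdown library 2. The erythroid and megakaryocyte marker in the table (1 of 6) stood at 27.85 to 45.62, and the epithelial and fibroblast markers (2 of 8) summed to 181.5 to 196.2. The part of these markers in the results was not tested.

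C-type lectin receptors are membrane proteins that share a fold first known for binding sugars with the help of calcium. On monocytes, macrophages and dendritic cells they recognise glycans of microbes and of host cells. Some, such as CLEC7A, activate the kinase SYK and the adaptor CARD9. Others, such as CLEC12A and CLEC4A, carry inhibitory tyrosine motifs that recruit the phosphatases PTPN6 and PTPN11. CD209, also called DC-SIGN, binds mannose and fucose and the adhesion molecule ICAM3, and is known as a protein that monocytes gain when interleukin-4 turns them into dendritic cells. In bulk libraries fewer cells of a type and less RNA per cell cannot be told apart.

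The promoter windows of 3 members are shown because CD209 was lower, and CLEC5A and CLEC12A were higher, in the knockdown libraries. Of the 7 genes 4 had a window in the RefSeq table (GRCh38.p14), which covers 250 bases before and 50 after the gene start as RefSeq gives it. For CLEC12A that start lies inside the gene as GENCODE 29 gives it, because the GENCODE gene also holds transcripts that begin upstream, so its window is not at the start of the span given with its values. Capitals mark matches, on either strand, to 8 short motifs. The windows are chr19:7747485-7747784 (minus strand) for CD209, chr7:141946925-141947224 (minus strand) for CLEC5A and chr12:9971159-9971458 (plus strand) for CLEC12A.
CD209: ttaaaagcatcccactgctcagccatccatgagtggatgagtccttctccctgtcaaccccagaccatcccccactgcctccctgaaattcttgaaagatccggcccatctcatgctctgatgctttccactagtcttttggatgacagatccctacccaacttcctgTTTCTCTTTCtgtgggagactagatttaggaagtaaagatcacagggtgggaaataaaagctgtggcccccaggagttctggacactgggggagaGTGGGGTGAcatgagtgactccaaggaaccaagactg
CLEC5A: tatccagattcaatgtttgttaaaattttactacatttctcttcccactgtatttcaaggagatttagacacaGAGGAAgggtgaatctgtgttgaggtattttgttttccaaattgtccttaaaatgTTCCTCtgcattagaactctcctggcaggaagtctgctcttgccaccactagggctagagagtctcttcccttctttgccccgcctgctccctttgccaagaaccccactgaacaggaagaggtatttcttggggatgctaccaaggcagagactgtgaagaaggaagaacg
CLEC12A: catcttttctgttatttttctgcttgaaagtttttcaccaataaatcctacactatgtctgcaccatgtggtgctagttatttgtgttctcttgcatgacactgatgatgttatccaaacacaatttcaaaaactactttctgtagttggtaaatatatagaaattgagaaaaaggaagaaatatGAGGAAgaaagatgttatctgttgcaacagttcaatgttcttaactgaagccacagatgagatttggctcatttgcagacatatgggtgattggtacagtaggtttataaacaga

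The CD209 window held the core of the interferon-stimulated response element (GAAA, any 2 bases, GAAA), beginning 82 bases before the start. It also held TCACNCCAC, the core of a sterol regulatory element, beginning 14 bases after the start. Both lie on the strand opposite to the gene, so the printed window shows their reverse complements. Of 35116 windows of the same length 3.57% held the former and 1.13% the latter. The CLEC5A window held GAGGAA, a core bound by ETS factors such as PU.1, at 2 places, and the CLEC12A window at 1, where 27.9% of all windows hold it. The other letters searched were GCGNGGGCG for EGR factors (9.43% of windows), TGANTCA for AP-1 (7.71%), TTCNNNGAA for STAT factors (7.66%), TTC and GAA with any 4 bases between them for STAT6 (6.44%) and GGGA and CC with any 4 bases between them for NF-kB (25.6%), and none of these was in the 3 windows. The CD302 window held 1 match each to the STAT6, NF-kB and EGR letters. It was 64.7% G or C with 34 CpG dinucleotides, against 50.7% and 1 in CD209, 44.3% and 2 in CLEC5A and 34.0% and 0 in CLEC12A, where all windows had medians of 58.7% and 14. No letters overlapped between motifs in these windows, and a match is a description of sequence, not a binding site.

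CD209 had the largest difference among the 6 genes. It (ENSG00000090659) spans 7739994 to 7747564 of chromosome 19 (GRCh38, minus strand) and had 4517 and 5041 normalised reads with the control oligonucleotide, against 2237 and 3500 in knockdown libraries 1 and 2. Both knockdown values were below both non-targeting values, and knockdown library 1 was the lowest of the 4. The means were 4779 ± 370 (SD, n = 2) and 2869 ± 893, a log2 fold change of -0.77 ± 0.11 (SE) on the log2(value + 1) scale. This moderated SE draws on the spread of other genes and does not give the spread of CD209 itself. The knockdown libraries deviated from the non-targeting mean by -1.09 and -0.45. It ranked 173 from the lowest fold change among the 19398 tested genes. Without knockdown library 1 the log2 fold change was -0.45, and without knockdown library 2 it was -1.09. CLEC4M, the close paralog beside CD209 with which reads could be shared, stood at 1.88 to 2.28 normalised reads in all libraries.

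CLEC5A and CLEC12A were higher in the knockdown. CLEC5A (ENSG00000258227), also called MDL-1, signals through the adaptor TYROBP and is known as a receptor for dengue virus. It spans 141927357 to 141947007 of chromosome 7 (minus strand) and had 5219 and 5406 normalised reads with the control oligonucleotide, against 6346 and 6001 with the knockdown. The groups did not overlap, and the log2 fold change was 0.22 ± 0.05 (SE). CLEC12A (ENSG00000172322), an inhibitory receptor for uric acid crystals and a surface marker of leukaemic stem cells, spans 9951316 to 9995694 of chromosome 12 (plus strand). It had 1204 and 1253 normalised reads with the control oligonucleotide, against 1443 and 1439 with the knockdown, a log2 fold change of 0.23 ± 0.07 (SE). Its knockdown values were nearly equal and both above the non-targeting ones.

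CLEC2B was also higher in both knockdown libraries, CD302 overlapped between the groups and CLEC7A was low in all libraries. CLEC2B (ENSG00000110852), also called AICL, is the ligand of the natural killer cell receptor NKp80 (encoded by KLRF1) and spans 9852984 to 9870136 of chromosome 12 (minus strand). It had 3208 and 3656 normalised reads with the control oligonucleotide, against 4170 and 3789 with the knockdown (log2 fold change 0.21 ± 0.06 SE). The highest non-targeting and lowest knockdown values lay close together, without overlapping. CD302 (ENSG00000241399), a lectin-like protein of endocytosis and cell migration, spans 159768630 to 159798255 of chromosome 2 (minus strand). It had 714 and 761 normalised reads with the control oligonucleotide, against 744 and 728 with the knockdown, and the knockdown values lay between the non-targeting ones. CLEC7A (ENSG00000172243), also called dectin-1, binds fungal beta-glucan and spans 10116777 to 10130258 of chromosome 12 (minus strand). Its reads were 37 and 38 (non-targeting) and 28 and 28 (knockdown), equal to 35.5, 35.8, 26.9 and 31.9 normalised reads. Its log2 fold change of -0.27 ± 0.28 (SE) was within its error.

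**Figure D1:**
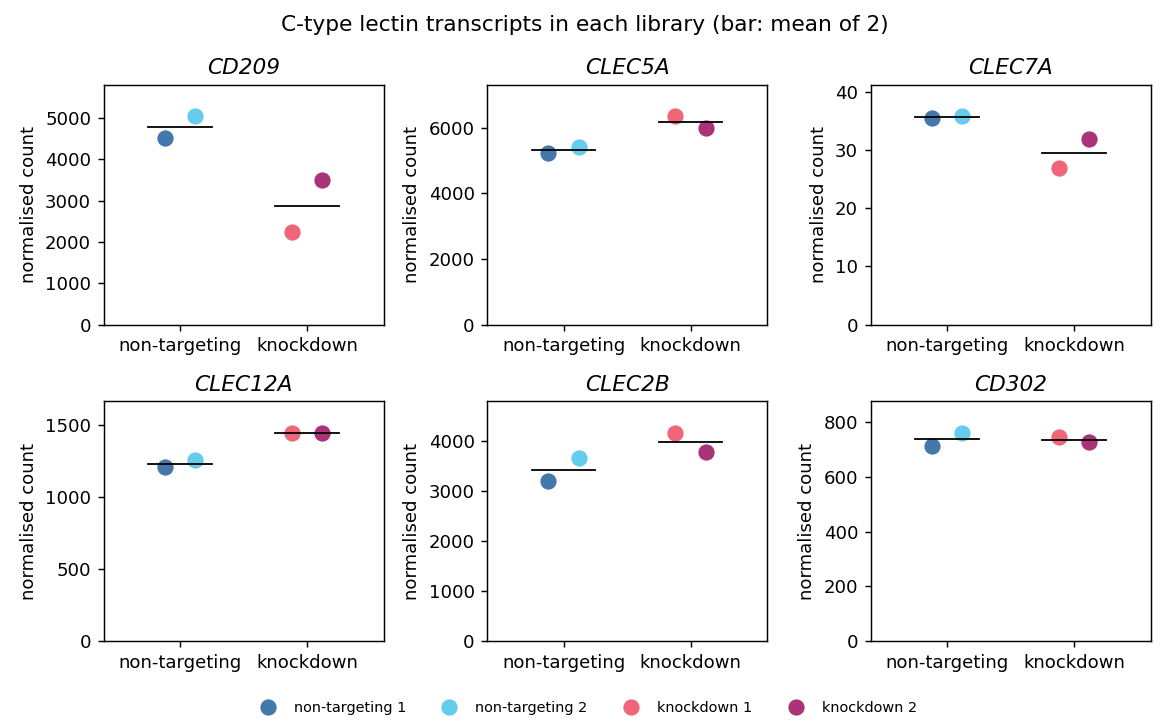
Normalised count (linear axis from 0) of 6 C-type lectin genes in each of the 4 libraries, with a bar at the mean of the 2 libraries of a group. CD209 stands at 4517 and 5041 against 2237 and 3500, CLEC5A and CLEC12A lie higher in both knockdown libraries, and the CD302 groups overlap.

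By the limma threshold (adjusted p under 0.05 over all tested genes), 1 of the 6 was called lower (CD209) and 1 higher (CLEC5A). Over all 19398 genes 4.25% were called, 3.4% lower and 0.851% higher. An unadjusted p under 0.05 (limma) was reached by 3336 of them, in either direction. In 5 of the 6 the groups did not overlap, as in 46.7% of all tested genes. The median log2 fold change of the 6 was 0.10, and of all tested genes -0.01. Since the choice of members used this contrast, nothing is read from these counts. The call of CD209 ended with robust empirical Bayes, with no mean-variance trend and with DESeq2, at log2 fold changes of -0.77, -0.77 and -0.73, and held with edgeR's quasi-likelihood test. The call of CLEC5A ended without non-targeting library 1 (log2 fold change 0.19), without non-targeting library 2 (0.24), without knockdown library 1 (0.18) and with no trend (0.22).

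Some reads of these genes could belong to others, since the strand setting of the counting is not given in the labels. CLEC5A lies wholly inside MGAM, a gene on the opposite strand that stood at 119 to 160 normalised reads. CLEC12A overlaps CLEC1B on the opposite strand by 10053 bases, at 3.76 to 9.59 normalised reads. CLEC2B overlaps an unnamed antisense gene by 2782 bases, at 4.8 to 9.41. CD302 overlaps the end of MARCHF7 on the opposite strand by 2398 bases, where MARCHF7 stood at 6950 to 7770 normalised reads. It also shares its body with the readthrough gene LY75-CD302 on the same strand, which is not analysed here.

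Per kilobase of exonic length, CLEC2B and CLEC5A were the most abundant of the 6 and CLEC7A the least. CLEC2B stood at 1216 and 1386 normalised reads per kilobase in the non-targeting libraries and CLEC5A at 1264 and 1309, so this pair overlapped and its order is not resolved. CD209 followed at 1024 and 1142, CLEC12A at 371 and 386, CD302 at 175 and 187 and CLEC7A at 8.48 and 8.53, and none of these overlapped its neighbour in the order. The level of CD209 was above that of 92.0% of the 26077 genes with a length, and that of CLEC7A above 26.7%. In the knockdown the mean order was the same, with CD209 at 507 and 793 per kilobase. Without division by length, CLEC5A led the non-targeting means, followed by CD209 and CLEC2B, while in the knockdown means CLEC2B (3979) stood above CD209 (2869).

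The sums of the set overlapped between the groups, while the shares of its members differed. The 6 genes together had 14900 and 16150 normalised reads with the control oligonucleotide, against 14970 and 15490 with the knockdown. For each read of CD209 there were 1.16 and 1.07 of CLEC5A in the non-targeting libraries, against 2.84 and 1.71 in the knockdown libraries. For CLEC12A the ratio was 0.267 and 0.249 against 0.645 and 0.411. For CD302, whose own values overlapped between the groups, it was 0.158 and 0.151 against 0.333 and 0.208. The ratios of CLEC2B and CLEC7A were higher in the knockdown too. Since CD209 is the divisor in each, these ratios largely restate its lower value.

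The genes whose 4 values moved most like CD209 were sought by the distance between log2 deviations from the non-targeting mean, across the 4 libraries, among 13933 genes whose mean reached 50. The nearest 5 were TMCC3 at a distance of 0.139, IFIT3 at 0.143, KALRN at 0.151, IFIT2 at 0.172 and SLC12A8 at 0.174, where the median gene stood at 1.16. IFIT2 and IFIT3 are interferon-induced proteins that act against viral RNA, and SLC12A8 belongs to the cation-chloride cotransporter family. IFIT3 had 9119 and 10228 normalised reads with the control oligonucleotide, against 4997 and 7173 with the knockdown. In all 5, as in CD209, knockdown library 1 was the lowest, at deviations of -0.93 to -1.06 against -0.36 to -0.50 in knockdown library 2. These genes were selected for this pattern, so their likeness is a description.

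**Figure D2:**
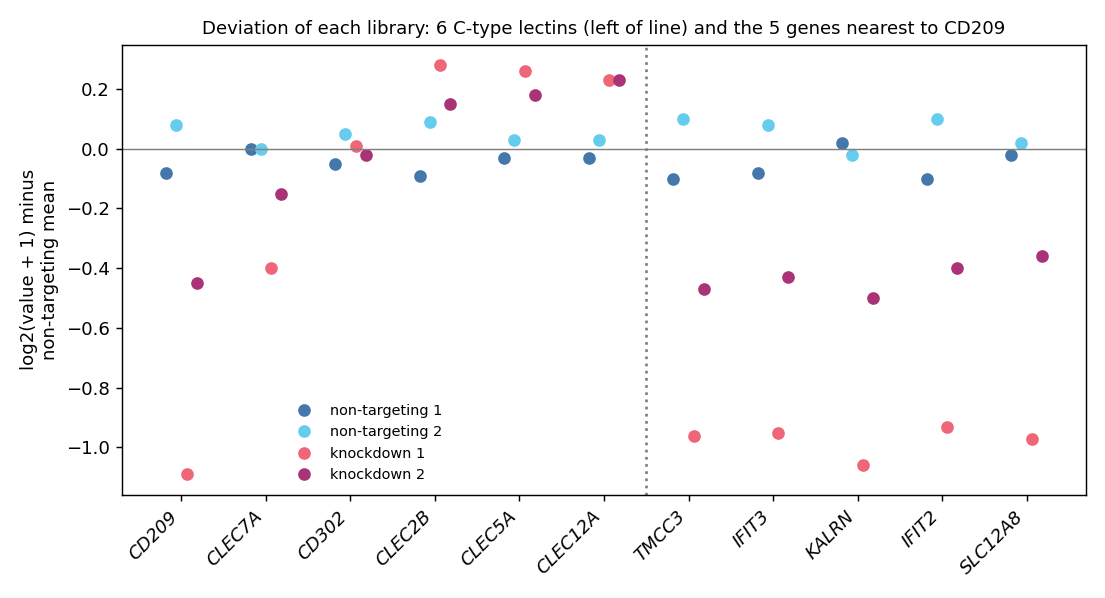
Log2(value + 1) of each library minus the mean of the 2 non-targeting libraries, for the 6 lectins (left of the dotted line) and the 5 genes nearest to CD209. CD209 sits at -1.09 and -0.45 in knockdown libraries 1 and 2, and in the 5 nearest genes knockdown library 1 also lies below knockdown library 2.

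Other C-type lectin receptors of myeloid cells were mostly not called. Of 28 listed, 22 were in the table and 19 tested, and 2 rose and 0 fell (limma, adjusted p under 0.05). At an unadjusted p under 0.05 the counts were 2 higher and 2 lower, and edgeR and DESeq2 called 0 in either direction. DESeq2 gave an adjusted p to only 10 of the 19 and none to CLEC12B. The list's median log2 fold change was -0.05, against -0.01 over all genes. CLEC12B, an inhibitory receptor encoded beside CLEC12A, rose from 26.9 and 35.8 to 55.6 and 61.6 normalised reads (log2 fold change 0.89 ± 0.25 SE; limma, adjusted p = 0.0448). CLEC4D, which pairs with FCER1G and binds mycobacterial glycolipid, rose from 396 and 395 to 550 and 463 (0.35 ± 0.10 SE; limma, adjusted p = 0.0491). Both calls lay near the threshold. That of CLEC12B ended without non-targeting library 1 (adjusted p = 0.349) or knockdown library 2 (0.13), and that of CLEC4D without either non-targeting library (0.182 and 0.142) or knockdown library 1 (0.314). The abundant CD93, MRC2, THBD and CD69 stood at log2 fold changes of -0.11, -0.08, -0.10 and -0.10 and were not called. The macrophage mannose receptor MRC1 is not analysed here.

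Of 39 further genes with a C-type lectin domain 24 were in the table and 14 tested, with 1 higher and 1 lower (median 0.03). At an unadjusted p under 0.05, 3 were lower and 3 higher, while edgeR called 1 lower and 1 higher, and DESeq2 0 lower and 1 higher. VCAN, a matrix proteoglycan, rose from 5471 and 5843 to 6654 and 7613 (log2 fold change 0.33 ± 0.06 SE; limma, adjusted p = 0.00162). CLEC11A, a secreted growth factor of blood and bone progenitors, fell from 50415 and 43806 to 41962 and 37400 (-0.25 ± 0.06 SE; limma, adjusted p = 0.0219). Without non-targeting library 1 it stood at -0.15 and was not called. The CLEC11A call also ended with DESeq2 (adjusted p = 0.47) and, in limma, with robust empirical Bayes (adjusted p = 0.153). In limma it ended too with quantile normalization (adjusted p = 0.252), the same total in every library (0.132) and no trend (0.493). CLEC2A and CLECL1P stood at 0.27 and 0.30 and PKD1 and ATRN at -0.06 each, none called.

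Among the signalling partners of these receptors, 5 of 37 tested genes fell and 0 rose (limma), with a median of -0.09. At an unadjusted p under 0.05, 16 were lower and 0 higher, with 5 and 0 by edgeR, and 3 and 0 by DESeq2. Of all 19398 tested genes 3.4% were called lower and 0.851% higher (limma), and 3336 had an unadjusted p under 0.05. With the same total in every library 2 of the signalling genes were called lower. PTPN6, the phosphatase SHP-1 that inhibitory receptors recruit, fell from 9153 and 8914 to 6552 and 7144 normalised reads (log2 fold change -0.40 ± 0.05 SE; limma, adjusted p = 6.32e-05). The related PTPN11 stood at 0.02 and was not called. SRC, a kinase that phosphorylates such receptors, fell from 625 and 615 to 449 and 464 (-0.44 ± 0.09 SE; limma, adjusted p = 0.004). TYROBP, the adaptor of CLEC5A, fell from 3115 and 2828 to 2554 and 2486 (-0.24 ± 0.06 SE; limma, adjusted p = 0.026). CLEC5A itself was higher, as given above. The call of TYROBP ended without non-targeting library 1 (log2 fold change -0.17) and with DESeq2 (adjusted p = 0.0718). In limma it also ended with quantile normalization (adjusted p = 0.102), the same total in every library (0.125) and no trend (0.409).

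The lipid kinase subunit PIK3CD fell by 0.21 on the log2 scale (limma, adjusted p = 0.0124). Its call ended without non-targeting library 1 (log2 fold change -0.19) or non-targeting library 2 (-0.24). In limma it also ended with quantile normalization (adjusted p = 0.0701), the same total in every library (0.075) and no trend (0.376). LYN, a SRC-family kinase singled out once its value was known, fell by 0.22 (limma, adjusted p = 0.0283). The core of the CLEC7A pathway was not called: SYK stood at 0.04, CARD9 at -0.14, BCL10 at -0.02 and MALT1 at -0.17. FCER1G, the adaptor of CLEC4D, stood at -0.19. Of these SYK alone came from the naming rule, and the others were named after their values were seen.

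Interleukin-4 receptor and response genes, the axis known to raise CD209 in monocytes, were mostly not called. Of 21 tested 1 fell and 0 rose (limma; median -0.06), with 2 lower and 0 higher at an unadjusted p under 0.05, 1 lower by edgeR and 0 by DESeq2. KLF4, a transcription factor of monocytes, fell from 1375 and 1236 to 1022 and 1097 (log2 fold change -0.30 ± 0.07 SE; limma, adjusted p = 0.0202). Its call ended without non-targeting library 1 (log2 fold change -0.22) or knockdown library 1 (-0.25), and with DESeq2 (adjusted p = 0.0686). In limma it also ended with quantile normalization (adjusted p = 0.0746), the same total in every library (0.0893) and no trend (0.382). STAT6, the transcription factor of the pathway, stood at -0.15 ± 0.05 (SE; limma, adjusted p = 0.114), and JAK1, TYK2 and IRS2 at -0.02, -0.03 and -0.07.

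Of 7 tested ligands and partners 2 fell and 0 rose (limma; median -0.12), with 3 lower and 1 higher at an unadjusted p under 0.05. Both edgeR and DESeq2 called 2 lower and 0 higher. LGALS9, a galectin reported to bind CLEC7A, fell from 9230 and 7866 to 7114 and 6496 (log2 fold change -0.33 ± 0.06 SE; limma, adjusted p = 0.00325). VIM, the filament protein vimentin, fell by 0.20 (limma, adjusted p = 0.0186). Without non-targeting library 1 both calls ended (log2 fold changes -0.21 and -0.19), and that of VIM also without non-targeting library 2 (-0.21). With no trend both ended too (limma, adjusted p = 0.42 and 0.39). That of VIM also ended in limma with quantile normalization (adjusted p = 0.0867) and the same total in every library (0.0917). The CD209 ligands ICAM3 and ICAM2 stood at -0.08 and -0.25 and ANXA1, another reported ligand of CLEC7A, at 0.16, none called.

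**Figure D3:**
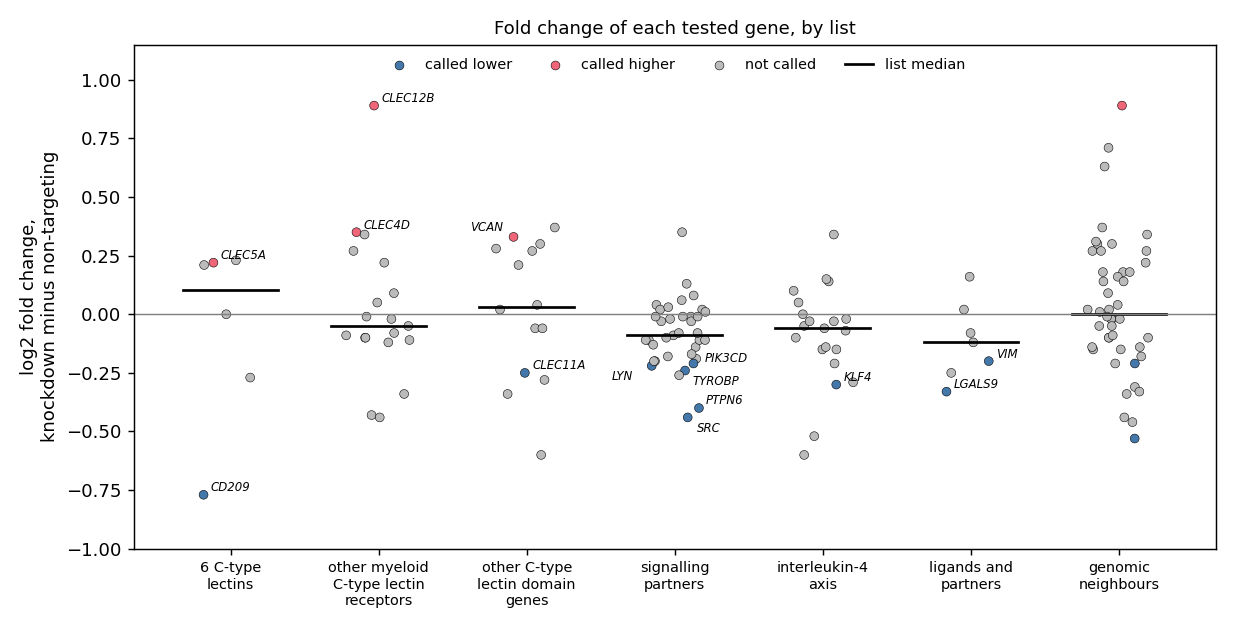
Log2 fold change (knockdown minus non-targeting) of each tested gene in 7 lists, coloured by the limma call, with the list median as a bar. CD209 at -0.77 lies below every other gene shown, CLEC12B at 0.89 lies above them, and 5 signalling partners are called lower.

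Genes near the lectins on the chromosome, pooled over all places, did not share one direction, with 23 tested below 0 and 23 above. Of 70 protein-coding genes within 250 kilobases of any of the 7 lectins, 46 were tested, with 2 lower, 1 higher and a median of 0.00 (limma). At an unadjusted p under 0.05, 6 were lower and 7 higher, and edgeR and DESeq2 each called 1 lower and 0 higher. The higher one was CLEC12B. The pooled median mixes places that leaned apart, as seen after the values were known. Near CLEC5A all tested genes lay above 0 and none was called: SSBP1 0.37, TAS2R3 0.31, TAS2R4 0.63, TAS2R5 0.71 and MGAM 0.27. Near CD209 the tested genes lay below 0 except PET100 (0.18), PCP2 (0.16), RETN (0.14), MCEMP1 (0.14) and CTXN1 (0.30). C3AR1, a complement receptor near CLEC4A, fell from 411 and 445 to 264 and 332 (log2 fold change -0.53 ± 0.11 SE; limma, adjusted p = 0.0073). PNPLA6, a phospholipase near CD209, fell by 0.21 (limma, adjusted p = 0.0463), a call that ended in 10 of 15 alternatives. The calls ended without non-targeting library 2 for C3AR1 (0.0515), and without either non-targeting library (0.434 and 0.107) or knockdown library 2 (0.162) for PNPLA6. FCER2, named after its value was seen, is the low-affinity IgE receptor and a C-type lectin near CD209, and had 294 and 294 normalised reads with the control oligonucleotide, against 199 and 273 with the knockdown (-0.34 ± 0.13 SE; limma, adjusted p = 0.177).

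CLEC2B, CLEC12A and CLEC7A lie in the natural killer gene complex of chromosome 12, which holds many lectin-like receptor genes. Of the 17 other genes listed there over 816 kilobases 9 were tested, and 8 had a log2 fold change above 0, with a median of 0.22. Over all tested genes 47.5% were above 0. Among the 8, KLRF1 (0.02 ± 0.28 SE) and KLRF2 (0.04 ± 0.29 SE) were low genes at 0 within their error. CLEC9A, also low, stood at 0.27 ± 0.26 (SE). With a minimum mean of 50, which tests fewer genes, 4 were above 0. This stretch was singled out after its values were seen, and of the 9 only CLEC12B was called. The median was 0.17 without knockdown library 1 and 0.18 with quantile normalization, where 6 of the genes were above 0 in each case, and 0.29 at most in the other alternatives. CD69, an early activation antigen, was the 1 below 0, with 1020 and 1203 normalised reads with the control oligonucleotide, against 1081 and 988 with the knockdown.

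**Figure D4:**
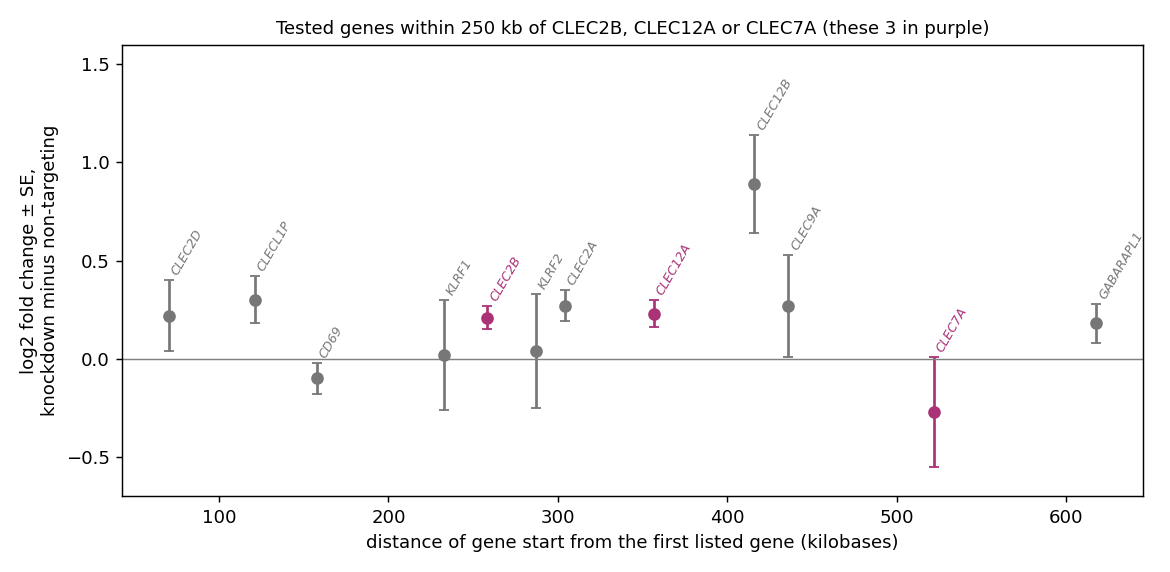
Log2 fold change with its SE (vertical bars) of the 12 tested genes within 250 kilobases of CLEC2B, CLEC12A or CLEC7A, by distance of the gene start in kilobases from the first listed gene. Most lie between 0 and 0.30, CLEC12B stands at 0.89, and CD69 and CLEC7A lie below 0.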

How the data were processed

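RNA of 4 THP-1 libraries was sequenced from total RNA. The submitters' processing notes name STAR 2.5.1b, DESeq2 and the build GRCh38, with no role or order. No source used here gives the counting tool, annotation or strand setting. The deposited signal is gene read counts scaled by the authors with a single factor for each library, as the steps of the values show. Every value was within 0.01 of a whole read in each library (100% of values). Each row has at least 2 reads in knockdown library 1, so genes lost there are not analysed here. Symbols matched 26579 and GENCODE 29 positions 26077 of 27106 rows.

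Values were tested as log2(value + 1), which understates the change of low genes, using the moderated test of limma 3.58.1 (R 4.3.3) with its trend option. Genes needed a mean of 10 or more, which 19398 met; p-values were adjusted by Benjamini-Hochberg and called under 0.05. Alternatives included edgeR 4.0.16 and DESeq2 1.42.0 on recovered reads. The fits were tested on simulated data in which each gene had the spread usual for its level. The simulation therefore does not show how they treat a gene of wider spread. The genes named were the members, the target, the 5 genes nearest to CD209 and, from each list, up to 4 called genes by p and 4 uncalled by mean; others are marked. The members and lists were chosen with earlier results of these data known. Protein features were not analysed here. The number of libraries limits the precision.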

Additional observations from a re-analysis of the deposited data

How the results depend on the processing

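No paired analysis was possible because the knockdown columns carry replicate numbers that match those of the labels only in part. Counts of called genes moved with the settings, and the cause was not tested unless the setting itself tests fewer genes or samples. Over all genes 660 were lower and 165 higher. The lower count was 380 with DESeq2, 325 with quantile normalization, 293 with the same total in every library and 0 with no trend (2337 at an unadjusted p under 0.05), and 334 to 960 with 1 library left out. The higher count was 67 with DESeq2, 291 with the same median and 0 with no trend, and 87 to 309 with 1 library left out. The count of the 6 lectins called lower was 0 with DESeq2, no trend and robust empirical Bayes. The count called higher was 2 with edgeR, 0 with no trend, 3 with robust empirical Bayes, the same median and the same total, and 0 to 2 with 1 library left out. Where CLEC12A or CLEC2B was called, its log2 fold change was 0.21 to 0.31. Other myeloid receptors called higher were 0 with DESeq2, edgeR, a minimum mean of 50, no filter, no trend and quantile normalization, 1 with the same total and 0 to 1 with 1 library left out, and 0 to 1 were lower. Among the other lectin domain genes the lower count was 0 with DESeq2, no trend, quantile normalization, robust empirical Bayes and the same total, and 0 to 1 with 1 library left out. The higher count was 0 with no trend, 2 with the same median and 1 to 2 with 1 library left out. Signalling genes called lower were 3 with DESeq2, 0 with no trend, 2 with quantile normalization or the same total, and 2 to 7 with 1 library left out. Interleukin-4 axis genes called lower were 0 with DESeq2, no trend, quantile normalization and the same total, and 0 to 3 with 1 library left out. Ligands called lower were 0 with no trend, 1 with quantile normalization or the same total and 0 to 3 with 1 library left out, and 1 was higher with quantile normalization and the same total and 0 to 1 with 1 left out. Neighbours called lower were 1 with DESeq2, edgeR, no filter, quantile normalization, the same median and the same total, 0 with no trend and 1 to 4 with 1 library left out. The higher count was 0 with DESeq2, edgeR, a minimum mean of 50, no filter, no trend and quantile normalization, 3 with the same median and 0 to 2 with 1 library left out. Fold changes of CD209 kept their sign in all 15 alternatives (-1.09 to -0.45), as did those of CLEC5A, CLEC12A and CLEC2B. The groups of these genes do not overlap, so leaving 1 library out could not change the sign. All alternatives also reuse the same 4 libraries, so nothing is read from the kept signs. CLEC7A kept its sign in the 13 alternatives that gave it a value, and CD302 in 6 of 15.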
